A study of Mus musculus with 6 samples.

Results

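The 10 genes described here encode enzymes that carry glucose carbon from glucose-6-phosphate to pyruvate: Gpi1, Aldoa, Aldoc, Tpi1, Gapdh, Pgk1, Pgam1, Eno1, Eno2 and Pkm. They were chosen by symbol, as named enzymes of glycolysis, and all 10 were found among the 55367 symbols of the deposited table. The data are 6 Smart-seq2 libraries of tdTomato-positive cells from the dentate gyrus of the hippocampus, isolated by cell sorting from mice with the genotype TRAP2;Ai9, in which Cre under the activity gene Fos switches on a permanent red label in cells active while the inducing drug is present. All 6 came from mice that had gone through a learned helplessness procedure, in which animals stop escaping after stress they cannot control. In 3 libraries the mice did not run afterwards (LH+ NR, called NR) and in 3 they ran voluntarily for 28 days (LH+ Run, called Run). The age and sex of the mice and the number of cells and animals behind each library are not given in the sources used here, so the p-values cover no more than the variation among these libraries, part of which may be technical.

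Glycolysis splits glucose into 2 molecules of pyruvate in the cytosol and yields ATP and NADH. In brain it is commonly described as more active in astrocytes, which release lactate, than in neurons, which rely more on mitochondrial respiration of pyruvate and lactate. Several steps have isoforms from separate genes: Aldoc is the aldolase of astrocytes, Aldoa the widely expressed one, Eno2 the enolase of mature neurons (neuron-specific enolase) and Eno1 the widely expressed one.

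The values are FPKM, which are scaled by transcript length and by library, so levels of different genes can be set beside each other. The libraries had FPKM of at least 1 for 5426 to 7355 genes each, and their read totals are unknown. The material was labelled as neurons, but 9 of 12 astrocyte markers reached FPKM 1 in all 6 libraries, with summed levels of 1885 to 2567 FPKM in NR and 1057 to 3452 in Run. Of 12 general neuron markers 5 did so, with sums of 387 to 899 FPKM in NR and 649 to 1283 in Run. None of 10 dentate granule neuron markers did, with sums of 41.3 to 161 FPKM and 34.8 to 173, and Tdo2 and Trpc6 were listed at 0 in every library. Markers of other cell types were present too. Endothelial marker sums were 1041 to 2338 FPKM in NR and 1104 to 1581 in Run, and mural sums 498.8 to 1759 and 316.6 to 742.7. Oligodendrocyte marker sums were 256.6 to 1506 FPKM in NR and 183.2 to 901.5 in Run. Microglial sums were 55.04 to 589 FPKM in NR and 178.7 to 900.3 in Run. Those of choroid plexus and ependyma were 179 to 220.7 and 27.04 to 113.7. In such pooled material, fewer cells of a type and less RNA per cell cannot be told apart.

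Of the 10 genes, 8 reached FPKM 1 in all 6 libraries. By their mean over the 6 libraries, 4 of the 10 ranked among the 100 highest symbols of the whole table and 9 among the 1000 highest. Together the 10 genes took 1.32%, 0.800% and 1.07% of the summed FPKM in the NR libraries, given in the order of replicates 1, 2 and 3 here and throughout, against 1.09%, 1.07% and 0.800% with running. The lowest library of each group was nearly the same and the ranges overlapped. The NR mean was 1.07% ± 0.262 and the Run mean 0.986% ± 0.162 (SD, n = 3 per group; 2-sided exact permutation p = 0.8, where 0.1 is the smallest p that 3 libraries against 3 allow).

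**Figure D1:**
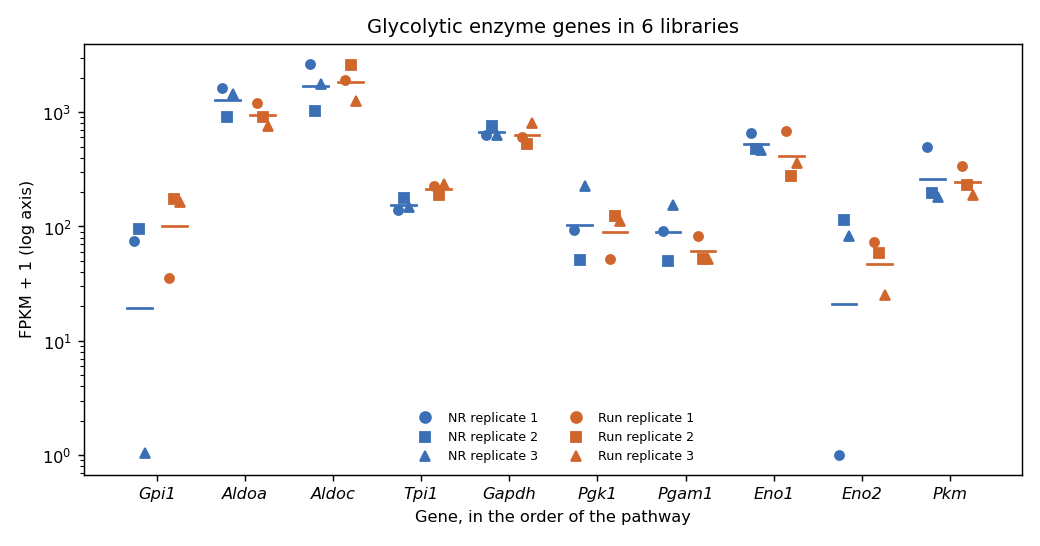
FPKM + 1 on a log axis for the 10 genes in the order of the pathway, with a point per library (NR blue, Run orange, marker shape by replicate) and a line at the mean of log2(FPKM + 1) of each group. Gpi1 in NR replicate 3 (0.0364 FPKM) and Eno2 in NR replicate 1 (0 FPKM) lie far below every other point, and Tpi1 is the only gene of the 10 whose groups do not overlap.

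The order of the levels was Aldoc, Aldoa, Gapdh, Eno1, Pkm, Tpi1, Pgk1, Gpi1, Pgam1 and Eno2, from a mean of 1864 FPKM to one of 57.8. Aldoc had the highest level in 6 of 6 libraries and stood above Aldoa by 0.68 ± 0.46 on the log2(FPKM + 1) scale (SD over 6 libraries). Eno1 stood above Pkm in 6 of 6 libraries, by 0.88 ± 0.44. Other neighbours in the order were less distinct. Aldoa was above Gapdh in 5 of 6 libraries and Gapdh above Eno1 in 4 of 6, with a log2 gap of 0.49 ± 0.54, so the levels of the latter pair did not differ beyond their spread. The same held for Pkm and Tpi1 (0.47 ± 0.72) and Tpi1 and Pgk1 (0.92 ± 0.98), and the lowest 4 genes, Pgk1, Gpi1, Pgam1 and Eno2, exchanged places from library to library.

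Averaged over the 6 libraries, hexokinase had the lowest summed level of the steps from glucose to lactate, 8.24 FPKM, and phosphoglycerate mutase the next lowest, 79.6 FPKM. The order of that mutase and glucose-6-phosphate isomerase (89.5 FPKM) was not settled, since Gpi1 was above Pgam1 in only 3 of 6 libraries. These sums also leave out near-identical copies, described below, which held 25.9% to 31.3% of Pgam1 FPKM and were absent for Gpi1. Hexokinase, which traps glucose in the cell by phosphorylating it, had a summed level over its 5 genes of 0, 16.6 and 10.5 FPKM (NR) against 0.0359, 15.5 and 6.85 (Run). The level was mostly that of Hk1, at 0, 16.6 and 10.5 FPKM (NR) against 0.0334, 12.6 and 4.12 (Run), and one library of each group had next to none. Gpi1 (chromosome 7, 34201330 to 34230336, mm10), which converts glucose-6-phosphate into fructose-6-phosphate, had 73.5, 94.1 and 0.0364 FPKM (NR) against 34.3, 174 and 162 (Run). Its groups overlapped, and 5 of the 6 values lay between 34.3 and 174. The log2 difference, Run minus NR, was 2.36 ± 1.83 (SE; limma adjusted p = 0.978). It was 0.25 without NR replicate 3, the library near 0, and 3.51 without NR replicate 2.

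Phosphofructokinase, the committed and most tightly regulated step, had sums of 125, 92.8 and 153 FPKM (NR) against 83.6, 163 and 161 (Run) over its 3 subunit genes. The muscle-type subunit gene Pfkm was present in every library, at 27.7, 69.3 and 97.2 FPKM (NR) against 51.7, 116 and 98.2 (Run). The platelet-type gene Pfkp had 44.2, 23.5 and 55.9 (NR) against 0.0323, 14.2 and 62.9 (Run). The liver-type gene Pfkl, at 53.5, 0 and 0 (NR) against 31.9, 32.3 and 0.0129 (Run), was present in some libraries of each group and near 0 in others. Of the 16 other glycolytic genes in the fixed list, 7 were listed at 0 in every library, among them the hexokinase gene Hkdc1 and the liver pyruvate kinase Pklr. Pfkm was the only one above FPKM 1 in every library. Of the 4 that were tested, 2 had positive and 2 negative differences (median 0.02), and none passed.

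**Figure D2:**
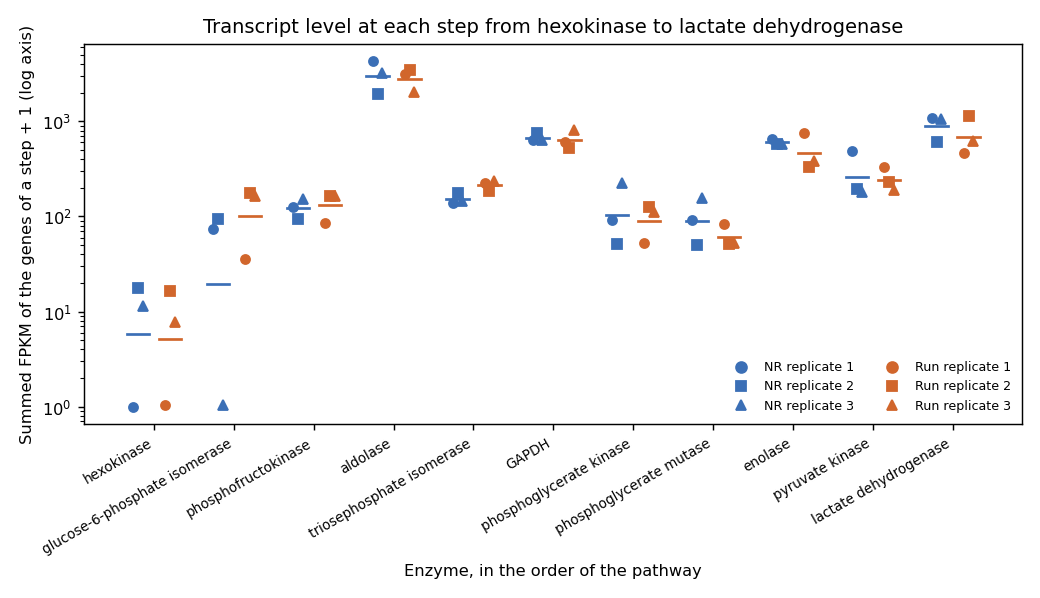
Summed FPKM + 1 of the genes of each enzyme on a log axis, in the order of the pathway, with a point per library and a line at the mean of the log2 values of each group. Hexokinase lies lowest on average, at 0 to 16.6 FPKM, aldolase highest at 1929 to 4278, and lactate dehydrogenase at 462 to 1125.

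Aldolase, which cleaves the 6-carbon sugar into triose phosphates, was the most abundant step. Aldoc (chromosome 11, 78322968 to 78327781) had 2655, 1028 and 1765 FPKM (NR) against 1903, 2580 and 1255 (Run). High and low libraries occurred in both groups, which overlapped almost entirely. Aldoa (chromosome 7, 126795234 to 126800751) had 1623, 901 and 1435 FPKM (NR) against 1204, 914 and 754 (Run). The lowest value was in Run and the highest in NR, with overlap. The log2 differences were 0.12 ± 0.41 for Aldoc and -0.45 ± 0.31 for Aldoa (SE), with limma adjusted p = 0.983 and 0.978. The sign of the Aldoc value depended on single libraries, being -0.24 without NR replicate 2, -0.13 without Run replicate 2 and 0.44 without NR replicate 1. The Aldoa value ran from -0.70 without NR replicate 2 to -0.28 without NR replicate 1.

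The pair of aldolase genes can be told apart in sequence, which matters because the ratio of their levels depends on assigning reads to the right gene. Their coding sequences were identical at 780 of 1003 aligned positions (77.8%). The stretch of 90 bases with the most differences, positions 421 to 510 of the Aldoa coding sequence counted from its start codon, reads as follows, with the differing bases in capitals.
Aldoa: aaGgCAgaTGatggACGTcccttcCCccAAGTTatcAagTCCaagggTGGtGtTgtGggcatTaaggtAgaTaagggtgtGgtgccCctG
Aldoc: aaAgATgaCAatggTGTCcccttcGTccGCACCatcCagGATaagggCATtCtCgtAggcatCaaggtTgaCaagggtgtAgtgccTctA

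Aldoc gave the larger part of aldolase FPKM in all 6 libraries, at 62.1%, 53.3% and 55.1% of Aldoc plus Aldoa in NR and 61.3%, 73.8% and 62.5% in Run. The log2 ratio of Aldoc to Aldoa averaged 0.40 ± 0.27 (NR) and 0.96 ± 0.46 (Run; SD, n = 3 per group). The difference of 0.56 was not distinguishable from the spread (2-sided exact permutation p = 0.2, and 0.6 after adjustment over the 3 measures tested this way). It was 0.298 without Run replicate 2 and at most 0.719, without NR replicate 1. Run replicate 2, with the highest share, also had the highest mean astrocyte marker level, 6.98 on the log2(FPKM + 1) scale. Run replicate 1, with the lowest at 5.56, had an Aldoc share of 61.3%, above those of NR replicates 2 and 3, whose marker levels were 6.33 and 6.86. The part of astrocyte RNA in the aldolase ratio was not tested.

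**Figure D3:**
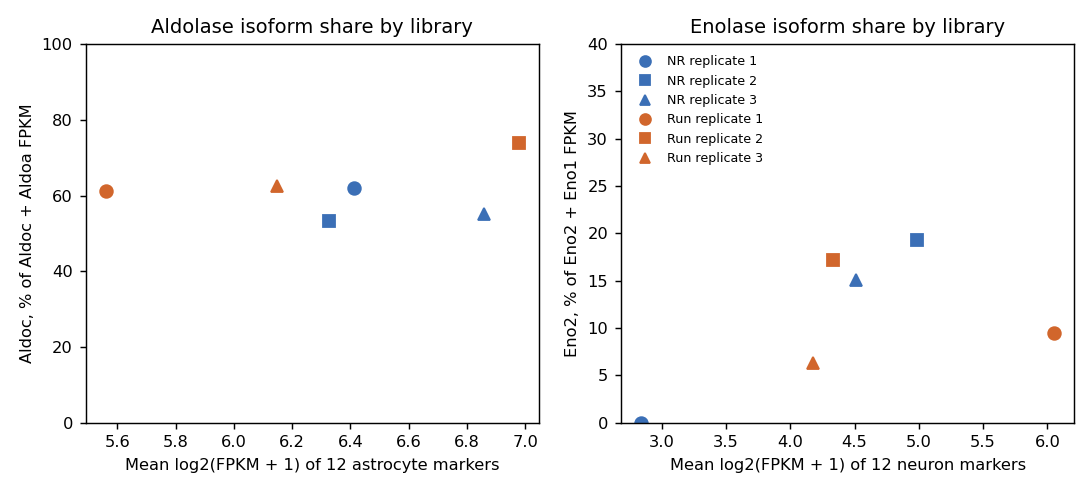
Left, Aldoc as a percentage of Aldoc plus Aldoa FPKM against the mean log2(FPKM + 1) of 12 astrocyte markers. Right, Eno2 as a percentage of Eno2 plus Eno1 FPKM (axis to 40%) against the mean of 12 neuron markers, with a point per library. The library without Eno2, NR replicate 1, has the lowest neuron marker level of the 6, 2.84.

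Tpi1 (chromosome 6, 124810586 to 124814296) encodes triosephosphate isomerase, which interconverts the triose phosphates so that both products of aldolase can go on. It had 138, 177 and 146 FPKM (NR) against 224, 186 and 233 (Run). All 3 Run libraries were above all 3 NR libraries, and the smallest gap was from 177 to 186. The means were 154 ± 20.6 and 214 ± 24.9 FPKM (SD, n = 3 each), and the log2 difference of 0.48 ± 0.41 (SE) did not pass (limma adjusted p = 0.978). Its residual SD, 0.18 on the log2 scale, was the smallest of the 10 genes, and limma widened it toward that of other genes of like abundance. The value ran from 0.41 to 0.59 when single libraries were left out. Exons of Tpi1 overlap those of Spsb2 on the opposite strand, and no source states that counting used the strand. Spsb2 had 0.0335, 0.0564 and 37.2 FPKM (NR) against 111, 0 and 65.1 (Run), so it was high in Run replicates 1 and 3 and at 0 in Run replicate 2. Its part in the Tpi1 values was not tested. Of the other genes whose exons overlap a gene of the set, Fam57b (with Aldoa) had at most 2.60 FPKM and Gm49759 (with Pkm) at most 0.0338. Gm26762, on the strand opposite to Gpi1, overlaps its exons too, and no value is given for it here.

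Gapdh (chromosome 6, 125161715 to 125166467), which oxidises the triose and makes NADH, was the steadiest gene of the set in relative terms. It had 628, 748 and 631 FPKM (NR) against 601, 527 and 801 (Run), a range of 1.52-fold and a coefficient of variation of 15.3% over 6 libraries. The lowest and the highest values were both in Run. The log2 difference was -0.07 ± 0.28 (SE; limma adjusted p = 0.983), with a 95% interval of -0.74 to 0.59. It was -0.24 without Run replicate 3, and its sign turned to 0.01 without NR replicate 2 and to 0.06 without Run replicate 2.

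Pgk1 (chromosome X, 106187100 to 106203699), which makes the first ATP of the pathway, had 91.3, 50.2 and 226 FPKM (NR) against 51.1, 124 and 112 (Run). Pgam1 (chromosome 19, 41911923 to 41918660), which moves the phosphate of phosphoglycerate, had 90.8, 48.9 and 154 FPKM (NR) against 81.4, 50.7 and 51.4 (Run). Both were highest in NR replicate 3 and lowest in NR replicate 2, and the Run values lay within the NR range for each. The log2 differences were -0.19 ± 0.75 for Pgk1 and -0.56 ± 0.68 for Pgam1 (SE; limma adjusted p = 0.983 and 0.978). That of Pgk1 was 0.39 without NR replicate 3, 0.21 without Run replicate 1 and -0.69 without NR replicate 2. That of Pgam1 ran from -0.98 without NR replicate 2 to -0.16 without NR replicate 3.

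Enolase, which makes the high-energy compound phosphoenolpyruvate, was represented mainly by Eno1. Eno1 (chromosome 4, 150236721 to 150248879) had 657, 470.4 and 461 FPKM (NR) against 685, 277 and 359 (Run). Run held both the highest and the lowest value. Its log2 difference was -0.35 ± 0.42 (SE; limma adjusted p = 0.978), and it ran from -0.73 without Run replicate 1 to -0.08 without Run replicate 2. Eno2 (chromosome 6, 124760053 to 124769673) was listed at 0 in NR replicate 1, stood at 112 and 81.7 FPKM in the other NR libraries, and had 71.7, 57.3 and 24.0 FPKM with running. Apart from the 0, both NR values lay above all 3 Run values. The fitted difference of 1.17 ± 1.86 (SE; limma adjusted p = 0.978) became -1.03 without NR replicate 1, so its direction rested on that library. It was 2.38 without NR replicate 2, and 2.25 with a pseudocount of 0.1 in place of 1.

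The enolase genes differ about as much as the aldolase genes, with 948 of 1233 aligned coding positions identical (76.9%). The stretch of 90 bases with the most differences is positions 145 to 234 of the coding sequence, with differing bases in capitals.
Eno1: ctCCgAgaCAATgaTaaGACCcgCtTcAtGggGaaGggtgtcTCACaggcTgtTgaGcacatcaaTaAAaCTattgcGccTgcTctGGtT
Eno2: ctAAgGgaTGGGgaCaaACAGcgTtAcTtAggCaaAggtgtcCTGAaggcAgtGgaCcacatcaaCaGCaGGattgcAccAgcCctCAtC

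Eno2 was the minor enolase transcript in every library. It made up 0%, 19.3% and 15.1% of Eno1 plus Eno2 FPKM in NR and 9.47%, 17.2% and 6.28% in Run. The log2 ratio of Eno2 to Eno1 averaged -4.63 ± 4.10 (NR) and -3.11 ± 0.80 (Run; SD, n = 3 per group; exact permutation p = 0.9), and the difference of 1.52 became -0.84 without NR replicate 1 and 2.61 with a pseudocount of 0.1. In NR replicate 1 the neuron genes Rbfox3, Syn1, Stmn2, Nefl and Slc17a7 were also listed at 0. Snap25 had 172 FPKM in that library, Camk2a 66.1 and Map2 48.9. Rbfox3 was at 0 in NR replicate 3 as well, and Slc17a7 in NR replicate 3 and Run replicate 3. Zeros in NR replicate 1 were not limited to neuron genes. The astrocyte gene S100b and the microglial gene C1qb were at 0, though C1qc had 54.7 FPKM. NR replicate 1 also had the fewest genes with FPKM of at least 1, 5426. The summed neuron marker level there was 387 FPKM, the lowest of the 6 libraries. In Run replicate 1, with the highest sum of 1283 FPKM, the Eno2 share was 9.47%, below those of NR replicates 2 and 3. The part of neuronal content in the Eno2 values was not tested.

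Pkm (chromosome 9, 59656368 to 59679375) encodes the pyruvate kinases M1 and M2, splice forms that the table does not separate, and makes the last ATP of the pathway. It had 491, 195 and 182 FPKM (NR) against 334, 231 and 187 (Run). Replicate 1 was the highest of each group, and the groups overlapped. The log2 difference was -0.09 ± 0.53 (SE; limma adjusted p = 0.989). It was 0.37 without NR replicate 1, whose value was the highest, 0.10 without Run replicate 3 and -0.35 without NR replicate 3.

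Read over all 10 genes, the comparison of runners with non-runners gave no call. By limma on log2(FPKM + 1), 0 of the 10 passed an adjusted p of 0.05, as did 0 of the 6155 genes tested (0%). None of the 10 had an unadjusted p under 0.05, against 4.94% of all tested genes (304 genes). The groups did not overlap for 1 of the 10, Tpi1, against 8.95% of all tested genes, with Run above for 4.76% and Run below for 4.19%, so the count is near the background. Of the 10 differences 4 were positive and 6 negative, with a median of -0.08, and over all tested genes 48.9% were positive with a median of -0.03. The median residual SD of the 10 was 0.624 on the log2 scale. Over all tested genes it was 0.797 at a mean of 100 to 1000 FPKM and 2.45 at 10 to 100 FPKM, the class that holds Gpi1 (2.75), Eno2 (2.76) and Pgam1 (0.639). At 1000 FPKM and above it was 0.387, in the class that holds Aldoc (0.609) and Aldoa (0.397). The 95% intervals were narrowest for Gapdh and Aldoa (-1.19 to 0.29) and widest for Eno2 (-3.25 to 5.58), so the absence of calls does not show that levels were the same.

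**Figure D4:**
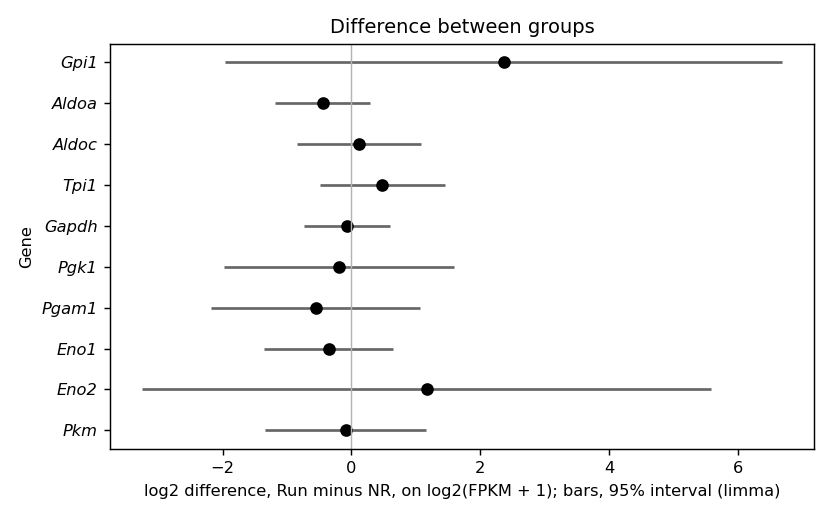
log2 difference, Run minus NR, of the 10 genes with the 95% interval from limma, on the log2(FPKM + 1) scale. Every interval spans 0, from -0.74 to 0.59 for Gapdh to -3.25 to 5.58 for Eno2.

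Many mammalian housekeeping transcripts have been copied back into the genome as processed pseudogenes, and reads from the parent gene can be placed on the copies. The reference transcripts of GENCODE release M21 were therefore searched for copies of each coding sequence with at least 90% identity over at least 50% of its length. Gapdh had 146 such copies in the table, of which 109 had a value above 0 and 28 reached FPKM 1 in some library. Eno1 had 5, Aldoa and Pkm 4 each, Pgam1 3 and Pgk1 2. Gpi1, Aldoc, Tpi1 and Eno2 had none. Of the 7 copies in the table that had been listed by symbol, 4 were tested, all with negative differences (median -0.22), and none passed. Their parents, Pgam1, Eno1, Aldoa and Pgk1, had negative differences too, and reads may be shared, so these signs are no separate result.

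Summed for each gene, the copies of Gapdh, Pgk1 and Pgam1 held a nearly constant percentage of their parent from library to library. The 146 Gapdh copies summed to 12.43%, 12.04% and 12.55% of Gapdh FPKM without running and to 11.64%, 12.07% and 11.97% with it. The 2 Pgk1 copies summed to 11.1% to 13.2% of Pgk1 over the 6 libraries, although Pgk1 itself varied 4.50-fold. The Pgam1 copies held 25.9% to 31.3% of Pgam1, nearly all of it in Pgam1-ps2 on chromosome 7, which had 26.4, 12.6 and 45.7 FPKM (NR) against 22.7, 13.1 and 15.6 (Run). Single copies did not all follow their parent. The Gapdh copy Gm7336, 100% identical where aligned, had 4.597, 3.98 and 4.33 FPKM (NR) against 3.17, 2.69 and 4.79 (Run), so it was lowest of NR in replicate 2, where Gapdh was highest of NR.

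**Figure D5:**
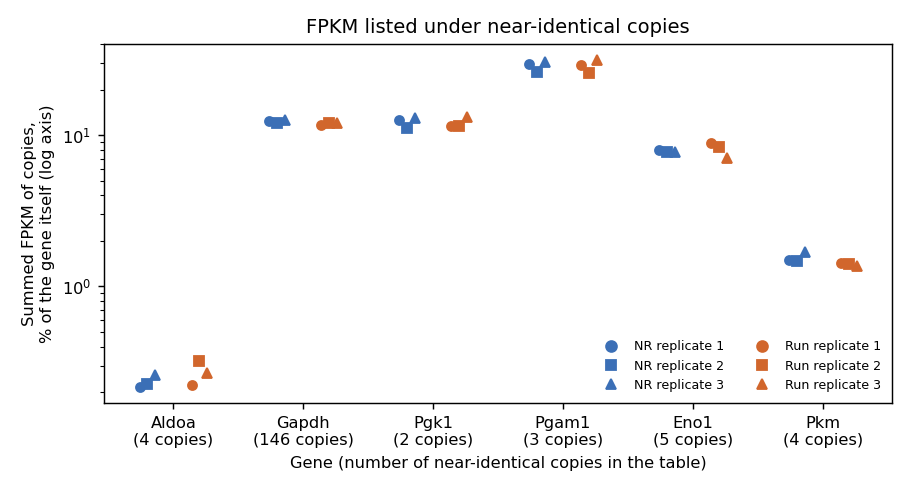
Summed FPKM of all near-identical copies as a percentage of the FPKM of the gene they resemble, on a log axis, with a point per library and the number of copies under each gene. Pgam1 lies highest at 25.9% to 31.3% and Aldoa lowest at 0.216% to 0.323%.

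For Eno1, the pair of copies closest in sequence to the parent held more of it than the distant ones did. The transcripts of the processed pseudogenes Gm5537 and Pgk1-rs7 were 100% identical to the coding sequence of Pgk1 where aligned. Each held 5.52% to 6.76% of Pgk1 FPKM. The Eno1 copies Gm4735 (99.6% identical) and Eno1b (99.4%) held 2.75% to 3.53% and 3.88% to 4.69% of Eno1. Those with 96.3% and 94.3% identity, Gm5855 and Gm8483, held 0.234% to 0.416% and 0.0808% to 0.219%. The Pkm copy Gm6560 (98.4%) held 1.09% to 1.32% of Pkm, and the Aldoa copy Aldoart1 (93.6%) 0.104% to 0.152% of Aldoa. Identity was not the sole difference between copies, since the 100% identical Gapdh copies Gm10359 and Gm12671 held 0.397% to 0.513% and 0.373% to 0.514%, less than Gm5559 (99.9%), with 1.34% to 1.55%.

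Stretches of 90 bases from the parent's coding sequence, each beside its copy, show what a read would have to cover to be placed on one row and not the other. For Pgk1 and Pgk1-rs7 (chromosome 12) positions 2 to 91 of the Pgk1 coding sequence are the same in both, and no base of the 1250 aligned differs.
Pgk1 and Pgk1-rs7: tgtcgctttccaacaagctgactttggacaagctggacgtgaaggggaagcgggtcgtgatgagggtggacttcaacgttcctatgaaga
Eno1 and Gm4735 (chromosome 2) differ at 5 of 1302 positions, and the stretch with the most differences, 1144 to 1233, holds 2 of them, in capitals.
Eno1: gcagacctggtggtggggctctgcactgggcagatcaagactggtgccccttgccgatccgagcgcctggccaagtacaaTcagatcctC
Gm4735: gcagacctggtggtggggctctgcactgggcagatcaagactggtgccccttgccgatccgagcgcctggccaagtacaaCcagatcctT
Aldoa and Aldoart1 (chromosome 4) differ at 80 of 1257 aligned positions, with 11 in the stretch from 139 to 228.
Aldoa: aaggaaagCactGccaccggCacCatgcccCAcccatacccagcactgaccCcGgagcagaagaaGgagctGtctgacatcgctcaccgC
Aldoart1: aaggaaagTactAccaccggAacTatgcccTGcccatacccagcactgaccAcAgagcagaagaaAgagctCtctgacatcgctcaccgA

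Adding the copies to their parents left the differences between groups nearly as they were. The log2 difference of Gapdh went from -0.07 to -0.08 and that of Pgam1 from -0.557 to -0.559, and no gene gained or lost an overlap of the groups.

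Genes whose values followed those of Gapdh, Aldoc and Eno2 most closely were found by the root mean square difference of log2(FPKM + 1), each gene centred on its own mean over the 6 libraries. For Gapdh the 3 closest of 1750 genes were its own pseudogenes Gm5559, Gm13394 and Gm12033, at 0.0754, 0.0787 and 0.0792, against a median of 0.663. The closest of the glycolytic genes was Tpi1, at 0.299. For Aldoc they were Gm15801 (0.147), Lamtor2 (0.199), of the complex that anchors mTOR signalling to lysosomes, and Mt3 (0.226), the brain metallothionein, against a median of 0.822. Mt3 had 2666, 1234 and 1957 FPKM (NR) against 1878, 2180 and 945 (Run), and Pkm and Aldoa lay at 0.423 and 0.419 from Aldoc. Genes at 0 in NR replicate 1, as Eno2 was, lay outside this search, so closer genes among them could not be found. Within the search, the closest to Eno2 were Cyc1, a subunit of respiratory complex III (0.854), the cathepsin gene Ctsl (0.918) and Arf5, of Golgi vesicle traffic (1.07), against a median of 2.47. These had at most 2.60 FPKM in NR replicate 1, where Eno2 was listed at 0.

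Of the 18 listed genes of pyruvate use, 5 reached FPKM 1 in all 6 libraries. Lactate dehydrogenase converts pyruvate and lactate into each other, and Ldhb, its heart-type subunit, had 841, 387 and 934 FPKM (NR) against 367, 912 and 578 (Run). The muscle-type subunit gene Ldha had 237, 225 and 114 (NR) against 94.98, 213 and 36.1 (Run), below Ldhb in every library. Of these 18 genes, 9 were tested and 0 passed. Differences were positive for 2 and negative for 7 (median -0.66). One of the 9 had an unadjusted p under 0.05 (higher in Run), against 2.45% of all tested genes in that direction and 2.49% in the other.

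That gene was Pdha1, the catalytic alpha subunit of pyruvate dehydrogenase, which commits pyruvate to the citric acid cycle. It had 0, 3.09 and 8.999 FPKM (NR) against 135, 97.6 and 152 (Run). All 3 Run libraries were far above all 3 NR libraries. Pdha1 was the 1 gene of the 9 with Run above NR without overlap, against 4.76% of all tested genes. The log2 difference of 5.21 ± 1.15 (SE) did not pass after adjustment over all genes (limma adjusted p = 0.246). Its partner Pdhb, the beta subunit, had 0.295, 25.2 and 126 (NR) against 83.5, 55.1 and 107 (Run), with overlap. Pdhx, the binding protein of the complex, had 45.4, 56.7 and 28.0 (NR) against 28.7, 0 and 2.79 (Run) (log2 difference -3.14 ± 1.48 SE, limma adjusted p = 0.978). The estimate was positive for Pdhb (2.30 ± 1.65 SE), as for Pdha1, and negative for Pdhx, whose 95% interval of -6.65 to 0.36 spans 0. Whether the subunits differ in direction is therefore not shown.

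None of the other lists of glucose metabolism had a gene that passed. Of 15 glycogen genes 7 were tested, 5 with positive and 2 with negative differences (median 0.14), and Ugp2, which makes the glycogen precursor UDP-glucose, had the smallest p. It was the 1 gene of the 7 with an unadjusted limma p under 0.05, higher in Run, against 2.45% of all tested genes. It was also the 1 of the 7 with Run above NR without overlap, against 4.76% of all tested genes. Ugp2 had 0, 8.12 and 11.7 FPKM (NR) against 18.6, 228 and 99.5 (Run) (log2 difference 3.97 ± 1.48 SE, limma adjusted p = 0.898). Pygm, the muscle glycogen phosphorylase, had 0, 14.6 and 18.1 (NR) against 24.0, 0.411 and 0 (Run), while the brain form Pygb was in every library at 47.1 to 182 FPKM in NR and 76.2 to 117 in Run. Of 10 genes of the shuttles that carry NADH electrons into mitochondria 9 were tested, 4 positive and 5 negative (median -0.56). Got1, the cytosolic aspartate aminotransferase, had 0, 62.3 and 0.0427 (NR) against 161, 80.7 and 53.1 (Run) (limma adjusted p = 0.965). Slc25a11, the oxoglutarate carrier, had 71.2, 40.4 and 77.6 (NR) against 31.5, 24.0 and 2.19 (Run) (limma adjusted p = 0.978). Mdh1, the cytosolic malate dehydrogenase, had 73.98, 77.0 and 162 (NR) against 237, 164 and 195 (Run) (limma adjusted p = 0.978). Of the 9 tested, the groups did not overlap for Mdh1, with Run above, and Slc25a11, with Run below, against 4.76% and 4.19% of all tested genes in those directions. Got1 overlapped between groups and was the 1 gene of the 9 with an unadjusted limma p under 0.05, higher in Run, against 2.45% of all tested genes.

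The pentose phosphate pathway, which branches off at glucose-6-phosphate and makes NADPH, had 3 of 8 genes tested, 1 positive and 2 negative (median -1.40). Its transaldolase gene Taldo1 had 54.7, 192 and 177 FPKM (NR) against 226, 69.7 and 5.40 (Run), and Pgls, of its second step, had 50.2, 30.3 and 101 (NR) against 0, 76.5 and 52.4 (Run). Of 10 regulators of glycolysis 4 were tested, 2 positive and 2 negative (median 0.25). Pfkfb3, which makes the activator of phosphofructokinase, had 0, 19.0 and 10.5 FPKM (NR) against 0, 12.03 and 0 (Run). Hif1a, the oxygen-regulated transcription factor that induces many glycolytic genes, had 1.01, 20.8 and 0 (NR) against 28.6, 1.43 and 11.7 (Run). The genes of glyoxal detoxification, Glo1, Hagh and Park7, were in every library and had positive differences with a median of 0.28. Over all tested genes 48.9% were positive. The differences were 0.277 ± 0.955 for Glo1, 0.12 ± 0.82 for Hagh and 0.38 ± 0.51 for Park7 (SE). Each was smaller than its SE, and the groups overlapped for each. Glo1, which removes the methylglyoxal that forms from triose phosphates, had 27.3, 15.6 and 15.7 (NR) against 41.1, 12.1 and 24.3 (Run). Park7, a protective protein tied to Parkinson's disease, had 226, 105 and 196 (NR) against 178, 182 and 320.1 (Run). None of the 6 gluconeogenesis genes was tested, and Fbp1, Fbp2 and Pck1 were listed at 0 in every library.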

How the data were processed

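RNA from sorted tdTomato-positive cells was measured in 6 Smart-seq2 libraries, 3 NR and 3 Run, grouped by their titles. The deposited values are FPKM, made by the authors, in 1 table, each library being a column. The build mm10 and the tools STAR 2.7.5c, Trimmomatic 0.39 and StringTie 2.1.7 are named per the submitters' processing notes. DESeq2 and edgeR are named there too, without a version. The role of each tool and the annotation are not given in the sources used here. How reads that match several genes were placed is not stated there either, and this can move FPKM between a gene and its copies.

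FPKM hold no read totals. In a search for the FPKM times length that 1 read is worth, among genes with a single annotated transcript, at most 1.38% of the values of a library lay within 1% of 1 or 2 steps, so no depth was inferred and no counting interval is given. Any pair of libraries differed in at least 99.99% of the values above 0.

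The 6155 genes that reached FPKM 1 in 3 or more of the 6 libraries were tested 2-sided on log2(FPKM + 1). The tool was limma 3.58.1 (R 4.3.3), allowing the variance to follow the mean. P-values were adjusted by Benjamini-Hochberg across these genes, and 0.05 was the threshold. A difference on this scale understates changes of low genes. The fit was tested on simulated data with large changes in abundant genes and the same spread for every gene, which says nothing of small changes or of low, variable genes. Library measures were compared with 2-sided exact permutation tests. Since a value of 0 may come from a failed estimate, such genes are called listed at 0. Coordinates came from GENCODE M21 on mm10, which held 53289 (96.2%) of the symbols. Copies were found with BLAST 2.17.0 among its transcripts, which also gave the sequences shown. A protein-coding gene with further transcripts that did not match was not counted as a copy. Python 3.11.15, pandas 2.3.3, scipy 1.17.1 and matplotlib 3.10.9 were used for the rest.

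Named are the 10 genes, the 2 tested members of each pathway list with the smallest p, the 3 genes closest in profile to Aldoc, Eno2 and Gapdh, and copies with FPKM of at least 1. Of the latter only some are named, to show how their levels relate to identity, and Hk1, Pfkl, the genes listed at or near 0 and Ldha, Ldhb, Pdhb, Mdh1 and Pygb were named after their values were seen. The genes and lists were chosen with earlier results of these data known. Alternatives were another pseudocount, other filters, other scalings, a replicate block and leaving out each library.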

Additional observations from a re-analysis of the deposited data

How the results depend on the processing

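No gene of the 10, and none of all tested genes, was called under any of the 12 alternatives, and the smallest adjusted p of one of the 10 was 0.712. Between 82 and 404 genes had an unadjusted p under 0.05. Pseudocount, filter, scaling and the replicate block turned no sign of the 10. A pseudocount of 0.1 moved the Eno2 difference from 1.17 to 2.25 and the difference in the log2 ratio of Eno2 to Eno1 from 1.52 to 2.61, and quantile normalization moved the Aldoc difference from 0.12 to 0.22. With FPKM of at least 1 required in all 6 libraries, Gpi1 and Eno2 gave no value. Leaving out single libraries turned signs: the log2 differences ranged from -0.24 to 0.44 for Aldoc, -0.244 to 0.0572 for Gapdh, -0.69 to 0.39 for Pgk1, -1.03 to 2.38 for Eno2 and -0.35 to 0.37 for Pkm. The difference in summed share ranged from -0.212 to 0.0502 percentage points, positive without NR replicate 1 (0.0502) and without Run replicate 3 (0.0141). The difference between groups, Run minus NR, in the log2 ratio of Eno2 to Eno1 ranged from -0.84 to 2.81, and that in the ratio of Aldoc to Aldoa from 0.298 to 0.719. The cause was not tested beyond the library left out. The median of the 10 stayed between -0.268 and 0.0271, within the spread of 0.273 between replicates. Same-numbered NR and Run libraries deviated from their group means with correlations of 0.0211, 0.00416 and 0.0179, the highest for each library but too low to pair them. With the replicate block the 10 gave 0 calls, the median stayed at -0.08, and the Aldoc to Aldoa difference stayed at 0.564. Adding the copies, an alternative chosen after seeing the data, moved no value of the 10 beyond its spread. Unknown depth limits what low values, such as those of hexokinase, can show.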
